A study of Mus musculus with 2 samples.

Results

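The 3 granin family genes *Chga*, *Chgb* and *Scg5* were followed in 2 lung sections of a mouse model of small cell lung cancer (SCLC), a neuroendocrine (NE) tumor. They were chosen by name and are 3 of the 479 genes on the panel. They were described in cells picked by other genes, namely cells with at least 20 transcripts of which 2 or more came from *Snap25*, *Celf3* and *Gria2* together. These are called gated cells here. They numbered 13528 of 152915 cells kept in RPR2 and 167234 of 340609 in CRPR2, and the rest are called other cells.

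Granins are acidic proteins of the dense-core granules in which NE cells store peptide hormones, and their serum and tissue levels are used as markers of NE tumors. Chromogranin A (*Chga*) and chromogranin B (*Chgb*) are cargo of the granule that help to form it and are cut into peptides. *Scg5* encodes 7B2, a small secretory protein that binds the prohormone convertase PC2 and keeps it from acting too early. Of the genes used for the gate, *Snap25* encodes a SNARE protein of vesicle fusion, *Celf3* an RNA-binding protein of neurons and *Gria2* a glutamate receptor subunit.

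The RPR2 mouse carried floxed alleles of *Rb1*, *Trp53* and *Rbl2*, which were deleted in the lung by adenoviral Cre given through the trachea at 10 weeks of age. The CRPR2 mouse had the same 3 deletions and a KO of *Cracd*, a regulator of actin. There was 1 section of each, and both lay in 1 paraffin block. Xenium In Situ counts single transcripts of a fixed panel by probes and imaging in the tissue, and cells were outlined by expanding their nuclei.

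With 1 section per genotype there was no test of genotype, and genotype, mouse and section cannot be told apart. Levels are given in CPM, the transcripts of a gene scaled to those of the whole panel in the same cells, with exact 95% Poisson intervals. Shares have Clopper-Pearson intervals. These cover counting error, and none of the variation between mice. Each gene has its own probes, so levels were compared between cells and sections and not between genes.

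The sections held 16313950 gene transcripts in RPR2 and 37348565 in CRPR2. The median was 111 transcripts per gated cell and 99 per other cell in RPR2, and 106 and 94 in CRPR2. In gated cells the brightest of 20 negative control probes reached 11.8 CPM (RPR2) and 10.5 CPM (CRPR2). The sections shared 8 cell barcodes. Of 8 NE or neuronal markers outside the gate, 5 in RPR2 and 4 in CRPR2 were at least 2-fold higher in gated than in other cells. So were 25.3% of 352 ranked panel genes in RPR2 and 18.3% of 361 in CRPR2. *Sez6l* was among the 5 of RPR2 only, at 35.5 CPM. *Gap43* went the other way, with 88.3 CPM in gated and 1362 CPM in other cells of RPR2, and 63.5 and 814 CPM in CRPR2. *Tubb3* was at 506 and 382 CPM in RPR2, and at 369 and 427 CPM in CRPR2. *Neurod1*, a transcription factor of an SCLC subtype, was near the control probes in gated cells, at 19.9 CPM (RPR2) and 31.5 CPM (CRPR2). Of the markers of other cell types, *Vwf*, *Scgb3a1* and *Msln* were higher in gated than in other cells of at least 1 section, the last 2 in RPR2 only. *Vwf*, an endothelial gene, was at 17906 CPM in gated and 5847 CPM in other cells of RPR2, and at 22159 and 8004 CPM in CRPR2.

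All 3 members matched a RefSeq gene of the mouse build GRCm38.p6 by symbol. The build was not given for these probes in the sources used here, so positions are those of RefSeq. *Chga* lies on the plus strand of chromosome 12 (chr12:102554941-102565027). *Chgb* lies on the plus strand (chr2:132781642-132795079) and *Scg5* on the minus strand (chr2:113776313-113829091) of chromosome 2. The 250 bases before each start are shown because the 3 genes were all higher in gated than in other cells. Capitals mark TGACGT on either strand, the core of the cAMP response element, a motif chosen after these sequences had been read.
Chga, chr12:102554691-102554940, plus strand: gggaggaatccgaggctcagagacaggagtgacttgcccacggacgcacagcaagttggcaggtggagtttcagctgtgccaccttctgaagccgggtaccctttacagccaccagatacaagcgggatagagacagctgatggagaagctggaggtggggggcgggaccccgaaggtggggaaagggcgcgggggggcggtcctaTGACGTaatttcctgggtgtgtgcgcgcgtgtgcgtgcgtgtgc
Chgb, chr2:132781392-132781641, plus strand: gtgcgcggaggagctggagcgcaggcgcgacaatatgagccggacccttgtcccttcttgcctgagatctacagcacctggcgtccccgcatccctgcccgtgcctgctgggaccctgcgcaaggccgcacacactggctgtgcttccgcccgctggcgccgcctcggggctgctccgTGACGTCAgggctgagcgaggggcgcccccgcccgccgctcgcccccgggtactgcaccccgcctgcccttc
Scg5, chr2:113829092-113829341, minus strand: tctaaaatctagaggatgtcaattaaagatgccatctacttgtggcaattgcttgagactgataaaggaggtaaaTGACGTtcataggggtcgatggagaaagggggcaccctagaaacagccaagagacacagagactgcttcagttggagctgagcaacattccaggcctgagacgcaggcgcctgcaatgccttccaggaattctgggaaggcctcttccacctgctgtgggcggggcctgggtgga

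The 6 letters began 44 bases before the start of *Chga*, 72 before that of *Chgb* and 175 before that of *Scg5*. All 3 windows held them, and 6.47% of 32851 listed mouse promoters of that length did, where a gene can have several. The motif was chosen after these 3 windows had been read, so this comparison cannot show enrichment. *Chgb* held the full palindrome TGACGTCA, in which the core on both strands overlaps, as did 1.55% of all promoters. The E-box CAGCTG, also searched, was in the window of *Chga* alone of the 3 and in 13% of all promoters. The granule genes *Scg2*, *Scg3* and *Ptprn2* have 1 listed promoter each, and of these *Scg2* held the palindrome and the others had no core. Of the gate genes, *Celf3* held the core in 3 of 7 listed promoters and *Gria2* in 0 of 1, and *Snap25* had none listed. A match of letters is a description of the sequence, and binding was not measured here.

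Granin transcripts were concentrated in gated cells of both sections. *Chga* was at 15479 CPM (15288 to 15673) in gated and 297 CPM (288 to 306) in other cells of RPR2, a log2 ratio of 5.71. In CRPR2 it was at 11799 CPM (11750 to 11848) and 2352 CPM (2330 to 2375), a log2 ratio of 2.33. Gated cells therefore stood above the others in both sections, by a smaller ratio in CRPR2.

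*Chgb* was at 4606 CPM (4501 to 4712) in gated and 75.0 CPM (70.7 to 79.6) in other cells of RPR2, a log2 ratio of 5.94. In CRPR2 it was at 3782 CPM (3755 to 3810) and 671 CPM (659 to 683), a log2 ratio of 2.49. *Scg5* was at 23452 CPM (23216 to 23690) and 407 CPM (397 to 418) in RPR2, a log2 ratio of 5.85. In CRPR2 it was at 17716 CPM (17656 to 17776) and 3183 CPM (3157 to 3209), a log2 ratio of 2.48. All 3 were more than 2-fold higher in gated cells of each section. Of all genes with enough transcripts to be ranked, 25.3% of 352 in RPR2 and 18.3% of 361 in CRPR2 were so.

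**Figure D1:**
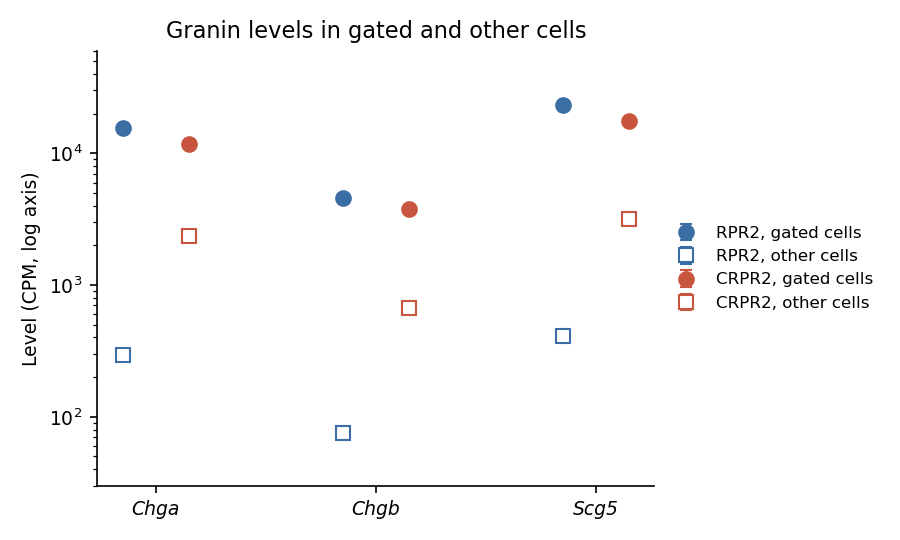
Levels of *Chga*, *Chgb* and *Scg5* in CPM on a log axis, with filled circles for gated cells, open squares for other cells, and a color for each section. Exact 95% Poisson intervals are drawn and are smaller than the symbols. The gated level of each gene is lower in CRPR2 than in RPR2, and the level in other cells is higher.

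Within gated cells, the 3 genes were lower in CRPR2 than in RPR2. The log2 ratio of CRPR2 over RPR2 was -0.39 (-0.41 to -0.37) for *Chga*, -0.28 (-0.32 to -0.25) for *Chgb* and -0.40 (-0.42 to -0.39) for *Scg5*. The levels in CRPR2 were thus 0.762, 0.821 and 0.755 times those in RPR2. None of the 3 was 2-fold apart, as 13.6% of 294 genes were (5.78% higher in CRPR2 and 7.82% higher in RPR2), and the median log2 ratio of these genes was 0.0042. Of the 294, 237 had a higher ratio than *Chga*, 216 than *Chgb* and 241 than *Scg5*.

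In other cells the order of the sections was turned around. There the log2 ratio of CRPR2 over RPR2 was 2.99 (2.94 to 3.03) for *Chga*, 3.16 (3.07 to 3.25) for *Chgb* and 2.97 (2.93 to 3.00) for *Scg5*. Over all cells of a section, with no gate, the ratios were 2.00, 2.12 and 1.98. The sign of the difference between the sections therefore turned on whether cells were gated, and 8.85% of cells were gated in RPR2 and 49.1% in CRPR2.

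The 3 genes kept nearly the same proportions in both sections. Of the granin transcripts in gated cells, *Chga* made up 35.6% (35.2 to 35.9) in RPR2 and 35.4% (35.3 to 35.6) in CRPR2. *Chgb* made up 10.6% (10.3 to 10.8) and 11.4% (11.3 to 11.4), and *Scg5* 53.9% (53.5 to 54.2) and 53.2% (53.1 to 53.3). The intervals of *Chga* overlapped between the sections, and those of *Chgb* and *Scg5* did not.

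The granin level rose with the number of gate transcripts in a cell, and most of the rise lay between 0 and 2. In RPR2, *Chga* was at 155 CPM in cells with 0 gate transcripts, 6387 CPM with 1, 13012 CPM with 2 and 16404 CPM with 10 or more. In CRPR2 it was at 1188, 7375, 10436 and 12460 CPM in the same bins. The median depth of these bins was 100, 85, 83 and 182 transcripts per cell in RPR2, and 99, 79, 84 and 170 in CRPR2. The part of depth in the rise was not tested. The 3 granins summed to 17825 CPM just outside the gate and 37023 CPM just inside it in RPR2, and to 20014 and 28904 CPM in CRPR2. In each bin from 2 gate transcripts up, all 3 genes were lower in CRPR2, with log2 ratios between -0.20 and -0.42. At 1 gate transcript they were higher in CRPR2, by 0.12 to 0.25.

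**Figure D2:**
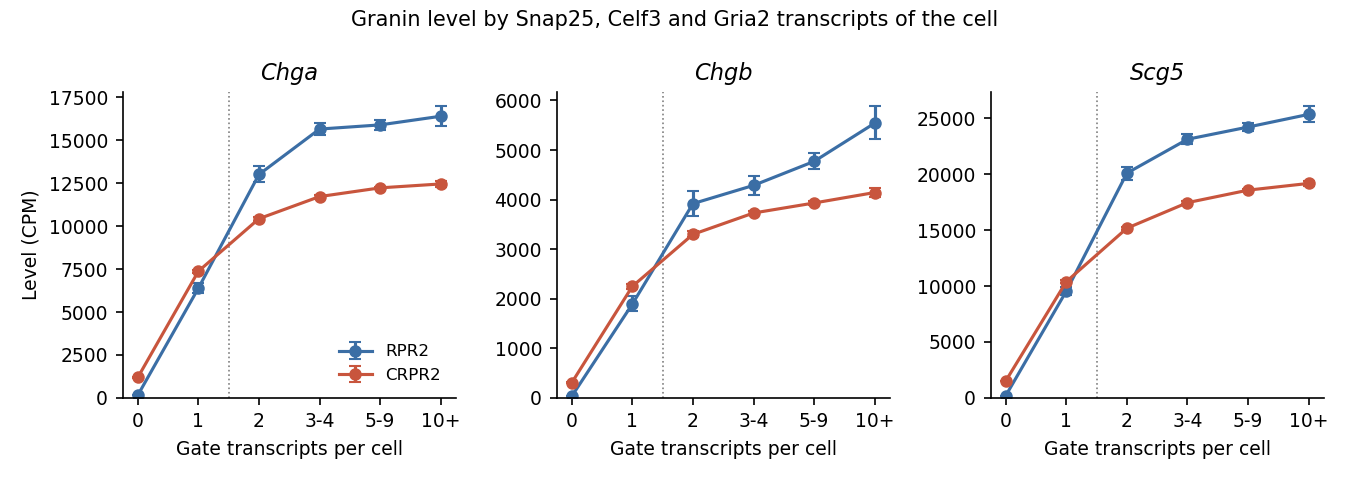
Level of each granin in CPM against the number of *Snap25*, *Celf3* and *Gria2* transcripts in the cell, by section, with exact 95% Poisson intervals. The dotted line is the gate, and the lines of the sections cross there, with RPR2 above CRPR2 in every bin to its right.

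Shares of cells were compared after 50 transcripts had been drawn at random from every cell, here called thinning. *Chga* was then seen in 53.7% (52.8 to 54.5) of 12787 gated cells of RPR2 and 44.5% (44.2 to 44.7) of 159363 of CRPR2. *Chgb* was seen in 20.6% (19.9 to 21.3) and 17.3% (17.1 to 17.5), and *Scg5* in 68.7% (67.9 to 69.5) and 58.6% (58.4 to 58.9). Shares were lower in CRPR2 for all 3 genes. Without thinning they were 78.2% and 69.0% for *Chga*, 38.9% and 33.5% for *Chgb*, and 88.4% and 81.5% for *Scg5*. In thinned other cells *Chga* was seen in 1.30% and 11.0%, *Chgb* in 0.381% and 3.63%, and *Scg5* in 1.55% and 13.4%.

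At least 1 granin was seen in 87.7% (87.1 to 88.3) of thinned gated cells of RPR2 and 79.8% (79.6 to 80.0) of those of CRPR2. All 3 were seen in 8.45% (7.97 to 8.94) and 5.14% (5.03 to 5.25). The product of the 3 single shares gives 7.58% and 4.52%, so that cells with all 3 were 1.11 times as frequent as the product in RPR2 and 1.14 times in CRPR2. In RPR2 the interval of this ratio included 1 with a gate of 5 transcripts (1.06, 0.975 to 1.14). The most frequent combinations were *Chga* with *Scg5* in RPR2 (28.5%) and *Scg5* alone in CRPR2 (26.2%). The single shares of the genes give 29.3% and 26.9% for these, so neither was more frequent than that product.

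Among gated cells the counts of the 3 genes had correlations near 0 at this depth. Pearson's r over cells of 1 section was 0.011 in RPR2 and 0.025 in CRPR2 for *Chga* and *Chgb*, and -0.0049 and 0.020 for *Chga* and *Scg5*. For *Chgb* and *Scg5* it was 0.060 and 0.042. Of 34980 gene pairs, 3.61% in RPR2 and 4.38% in CRPR2 had a higher r than *Chgb* and *Scg5*, 19.9% and 7.99% than *Chga* and *Chgb*, and 54.1% and 9.76% than *Chga* and *Scg5*. Counts this sparse leave weak correlations with no reading, and cells of 1 section share their tissue and library. In other cells, where most cells had no granin transcript, r ranged from 0.19 to 0.39 over the same pairs. There, cells with all 3 genes were 1408 times as frequent as the product of the shares in RPR2 and 16.3 times in CRPR2. These were 135 of 124272 cells in RPR2 and 1280 of 147187 in CRPR2. Other cells pool unlike levels, with summed granins at 383 CPM for 0 gate transcripts and 17825 CPM for 1 in RPR2. In CRPR2 these were 3007 and 20014 CPM. The part of this mixture in the ratios was not tested.

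At the thinned depth, granin counts varied little more between gated cells than random draws. The variance over the mean of thinned counts was 1.03 for *Chga*, 1.06 for *Chgb* and 1.05 for *Scg5* in RPR2, and 1.03, 1.03 and 1.06 in CRPR2. The median of 265 panel genes was 1.09 in RPR2 and 1.08 in CRPR2, and between 158 and 201 of these genes had a higher value than a given granin. For the 3 genes summed it was 1.07 and 1.09, where draws at the same mean give 0.956 and 0.966. Gated cells with no granin transcript made up 12.3% in RPR2 and 20.2% in CRPR2, where such draws give 10.3% and 17.6%. Mean thinned counts were low, at 0.237 for *Chgb* and 1.21 for *Scg5* in RPR2. At means this low, variance over mean says little about the spread of levels between cells. When thinned to 100 transcripts it was 1.25 for *Scg5* in RPR2 and 1.18 in CRPR2. An even granin level across gated cells is therefore not shown.

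**Figure D3:**
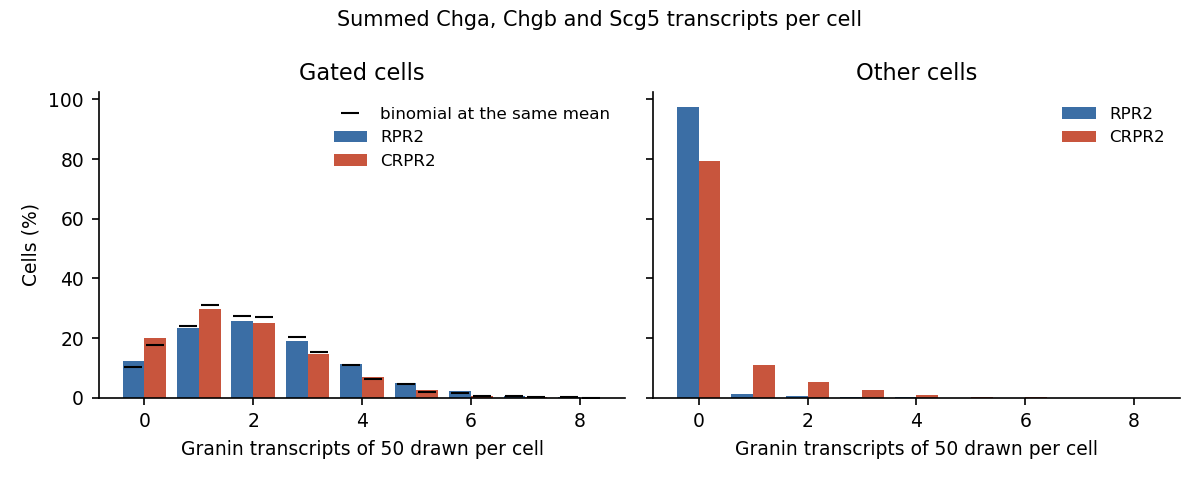
Percent of cells by the number of granin transcripts among 50 drawn per cell, for gated cells and other cells, with a bar for each section. Short black lines give the binomial share at the same mean in gated cells. Gated cells form a single hump with slightly more cells at 0 than the lines, and most other cells are at 0.

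**Figure D4:**
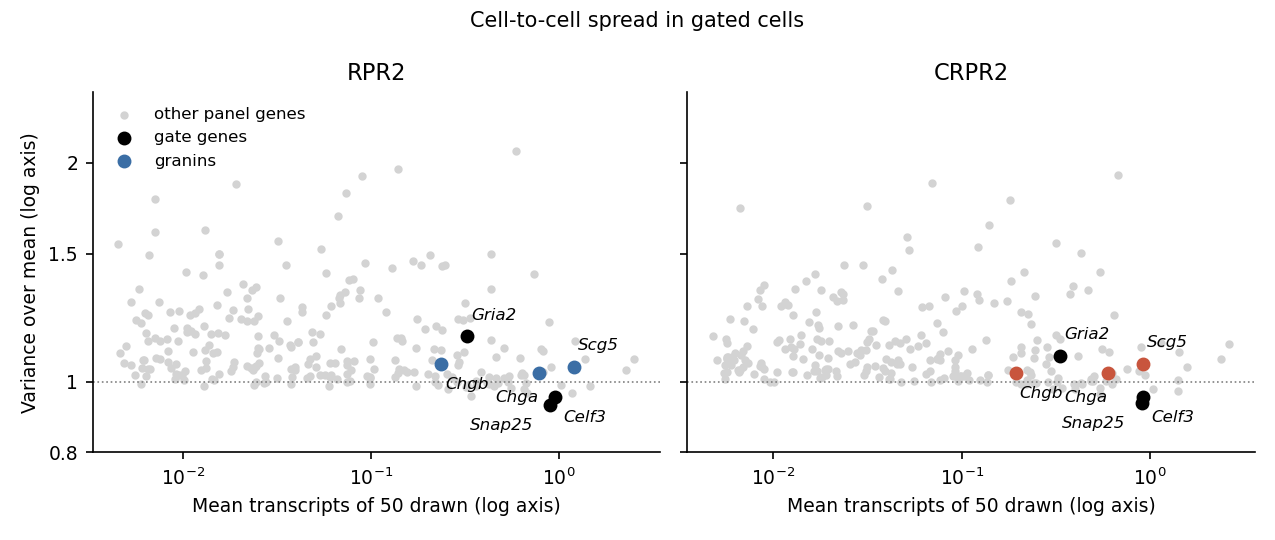
Variance over mean against the mean of thinned counts in gated cells, both on log axes, for panel genes in gray, gate genes in black and granins in color. The dotted line is at 1. The granins lie between 1.03 and 1.06 in both sections.

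Gated cells that differed in granin count also differed in other genes. Levels were taken as CPM of the panel without the granins, in cells with 3 or more granin transcripts of 50 and in cells with 0. *Scg2* (secretogranin II) had a log2 ratio of 0.56 in RPR2 and 0.57 in CRPR2, and *Ptprn2*, a granule membrane protein, 0.54 and 0.50. The granule gene *Scg3* had 0.42 and 0.35. The rise was not particular to granule genes, with 0.43 and 0.49 for *Ly6h* and 0.48 and 0.42 for *Fxyd6*. The gate genes rose by 0.31 to 0.48 in RPR2 and by 0.27 to 0.39 in CRPR2. *Gad1*, the enzyme that makes GABA, had 0.74 and 0.69. The alveolar markers went the other way, with 8900 CPM against 26236 CPM in RPR2 and 10818 against 27020 CPM in CRPR2. The endothelial list without *Vwf* also fell, by 1.60 and 1.10 on the log2 scale. The T cell, myeloid (without *Cd68*) and fibroblast lists fell by 2.41, 1.51 and 1.67 in RPR2 and by 1.62, 1.37 and 0.92 in CRPR2. The mural list fell by only 0.29 and 0.15. In gated cells that list was mostly *Acta2*, at 4095 of 4308 CPM in RPR2 and 4515 of 4943 CPM in CRPR2. The part of transcripts from neighboring cells in these differences was not tested.

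Among 259 panel genes outside the gate, *Scg2*, *Ptprn2*, *Fxyd6* and *Gad1* were among the 5 with the highest mean correlation with the summed granins in gated cells, at 0.065 to 0.047. The value of *Gad1* rested mainly on *Scg5*, with r of 0.073 in RPR2 and 0.045 in CRPR2. With *Chgb* it was 0.024 and 0.0088, and with *Chga* -0.0060 and 0.0023. *Scgb3a2*, *Hp*, *Sftpb*, *Selenbp1* and *Sftpd*, genes high in lung epithelium, had the lowest, at -0.15 to -0.12. Across 12 cell classes in both sections (24 points, some sharing marker genes), the levels most like the summed granins were those of *Ly6h* (r = 0.987), *Scg3* (0.981) and *Dbpht2* (0.978). *Ly6h* and *Dbpht2* are not on the granule list used here, so a high r was not particular to granule genes. The gate genes *Snap25* and *Celf3* reached 0.967 and 0.965. Gated cells were 1 of the classes and were picked by these genes, so their r has no reading.

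The other granule genes were given by a list of which 4 of 44 were on the panel. *Scg2* was at 16399 CPM in gated cells of RPR2 and 12984 CPM in those of CRPR2, a log2 ratio of -0.34. *Scg3*, which anchors granins to the granule membrane, had -0.16 (8851 and 7906 CPM) and *Ptprn2* -0.14 (13383 and 12130 CPM). *Nts*, a neuropeptide, went the other way at a low level, with 12.4 CPM (7.60 to 19.2) and 21.3 CPM (19.3 to 23.5) and a log2 ratio of 0.78 (0.13 to 1.5), beside 11.8 and 10.5 CPM for the brightest control probe. *Scg2*, *Scg3* and *Ptprn2* were lower in CRPR2, by less than *Chga* and *Scg5*.

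Within gated cells, states called from other genes in the thinned cells had small differences in granin level. Cells with a transcript of *Mki67* or *Top2a*, genes of cycling cells, had less *Scg5* than the rest, with a log2 ratio of -0.21 in RPR2 and -0.20 in CRPR2. *Chgb* had -0.22 and -0.13, and *Chga* went the other way, with 0.12 (0.08 to 0.16) and 0.04 (0.03 to 0.06). *Chga* thus parted from *Chgb* and *Scg5* in cycling cells of both sections.

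Cells with the NOTCH targets *Hes1*, *Hey1* or *Hey2* were lower in all 3 genes, by 0.13 to 0.24 in RPR2 and 0.15 to 0.20 in CRPR2 on the log2 scale. Cells with the YAP targets *Ccn1* or *Ccn2* were lower by 0.25 to 0.37 and 0.30 to 0.38. In RPR2, *Ccn1* was at 461 CPM in gated and 3248 CPM in other cells, and *Ccn2* at 490 and 3705 CPM. *Hes1* was at 1750 and 3165 CPM there, and *Hey1* at 1238 and 2887 CPM. These genes were also lower in gated than in other cells of CRPR2. Cells with *Cldn2*, *Cldn4*, *Krt19* or *Upk3a*, genes of epithelium, had ratios of -0.04 to 0.02 in RPR2 and -0.22 to -0.12 in CRPR2. In every one of these strata, with or without the transcript, the 3 genes were lower in CRPR2 than in RPR2. These states were called after thinning, when every cell had the same number of transcripts. Before thinning, cells called positive had somewhat higher medians, such as 119 transcripts against 112 for the cycling genes in RPR2. The part of this difference was not tested.

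Outside the gate, the share of granin transcripts in cells with no marker class turned on the marker lists. Classes were called from at least 3 transcripts of a marker list. After the data were seen, the lists were trimmed to markers at least 2-fold lower in gated than in other cells of both sections, which dropped 11 of 48 markers, among them *Vwf*, and the 6 classes left with 3 or more markers are described. Cells of no class were 10.5% of other cells in RPR2 and 26.6% in CRPR2, and held 60.2% and 59.9% of the granin transcripts there. They had a median of 64 and 59 transcripts, against 111 and 106 in gated cells, and the part of depth was not tested. With the full lists they held 46.1% and 42.8%. Their *Chga* level of 2237 CPM (RPR2) and 7894 CPM (CRPR2) was 14.5% and 66.9% of the gated level. Cells with 2 or more granin transcripts lay outside the gate in 16.9% of 14561 cases in RPR2 and 17.6% of 164866 in CRPR2. Cells with that many made up 1.77% of other cells in RPR2 and 16.8% in CRPR2, and 89.4% and 81.2% of gated cells.

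In the 6 marker classes, *Chga* ranged from 51.3 CPM (endothelial markers) to 287 CPM (alveolar markers) in RPR2 and from 359 CPM (myeloid markers) to 1956 CPM (alveolar markers) in CRPR2. In RPR2 the order from the top was alveolar, T cell, myeloid, fibroblast, mural and endothelial markers, and the intervals of all neighbors in this order overlapped except mural and endothelial markers. In CRPR2 it was alveolar, mural, fibroblast, endothelial, T cell and myeloid markers, and the interval of T cell markers overlapped those of its neighbors. These orders turned on the trimming of the lists. With the full lists, *Chga* in RPR2 was at 105 CPM (96.6 to 113) with endothelial and 73.9 CPM (55.8 to 95.9) with mural markers. In CRPR2 it was then at 1631 CPM with endothelial and 1620 CPM with alveolar markers. Cells with secretory airway markers, not among the 6 classes, were at 2878 CPM there. *Chga* and *Chgb* were higher in CRPR2 in all 6 classes, and *Scg5* in 5 of 6. In T cell-marker cells the intervals of the sections overlapped for all 3 genes, and *Chgb* rested on 1 transcript in RPR2. Overlap of this kind does not show equal levels. With the full lists, the log2 ratio of CRPR2 over RPR2 in T cell-marker cells was 0.97 (0.077 to 1.955) for *Chga*. It was 2.64 (-0.17 to 8.08) for *Chgb* and -0.21 (-0.75 to 0.33) for *Scg5*.

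In cells with T cell markers *Scg5* was at 644 CPM (484 to 841, 54 transcripts in 1007 cells) in RPR2 and 618 CPM (493 to 765, 84 transcripts in 1613 cells) in CRPR2. *Chga* in the same cells was at 179 CPM (100 to 295) and 390 CPM (292 to 510). *Scg5* made up 77.1% (65.6 to 86.3) of their granin transcripts in RPR2, against 53.9% in gated and 49.1% in alveolar-marker cells. In CRPR2 it made up 56.8% (48.4 to 64.9). Among T cell-marker cells with 0 gate transcripts *Scg5* held 77.6% (65.8 to 86.9) of them for RPR2 and 59.4% (49.5 to 68.9) for CRPR2. After thinning, *Scg5* was seen in 3.57% (2.44 to 5.03) of T cell-marker cells of RPR2, against 0.261% (endothelial markers) to 1.54% (alveolar markers) in the other 5 classes. In CRPR2 it was seen in 2.90% of T cell-marker cells, within the range of 2.12% to 11.8% of the other 5 classes. Before thinning, the median was 80 transcripts in T cell-marker cells of both sections.

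**Figure D5:**
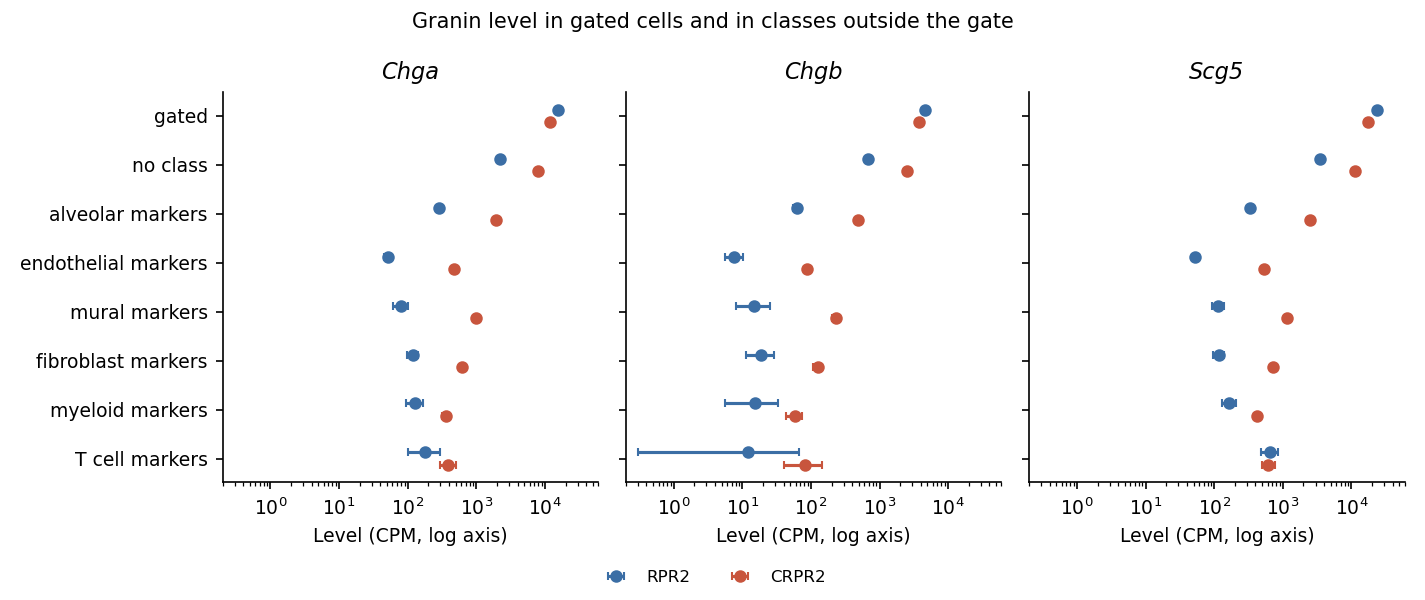
Levels of each granin in CPM on a log axis, in gated cells, in cells of no class and in 6 marker classes outside the gate, by section, with exact 95% Poisson intervals. Every class lies below the gated cells. CRPR2 lies to the right of RPR2 outside the gate except for *Scg5* in T cell-marker cells, where the intervals of the sections overlap for all 3 genes.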

How the data were processed

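The Xenium In Situ data used here came from 1 RPR2 and 1 CRPR2 lung section. The authors deposited raw transcript counts per gene and segmented cell, without normalization, and the submitters' processing notes name Seurat 4.4.0. A minimum of 20 gene transcripts per cell removed 1903 RPR2 and 2236 CRPR2 cells, and no doublet caller was run. Control features served as background, and positions were not used here. Counts were summed over cells and scaled to CPM. Ranks of level ratios used genes with at least 100 CPM in one of the groups compared. Ranks of spread and of correlation over gated cells used genes with at least 100 CPM in gated cells of both sections. Thinning drew 50 transcripts per cell without replacement (seed 1) and dropped 741 gated and 15115 other cells of RPR2, and 7871 and 26188 of CRPR2. Ratios between groups of cells have exact conditional 95% intervals. For all 3 granins over the product, the interval is that of the share with all 3, with the product taken as fixed. With 1 section per genotype no p-value was computed.

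The members, gate and lists were chosen with earlier results of these data known. Genes named beyond the members are the granule list, the gate genes, and the 5 genes most and least correlated with the summed granins, of which 1 is not reported here. Interval, thinning and ratio code was tested on simulated data. The tools were scipy 1.17.1, numpy 2.4.6, pandas 2.3.3 and matplotlib 3.10.9 under Python 3.11.15.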

Additional observations from a re-analysis of the deposited data

Results flagged for a closer look

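For all 3 granins, the difference between the sections had opposite signs in gated and in other cells. In other cells the log2 ratio of CRPR2 over RPR2 was 2.99 for *Chga*, 3.16 for *Chgb* and 2.97 for *Scg5*, against -0.39, -0.28 and -0.40 in gated cells. With 1 section per genotype the difference between these ratios was not tested.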

How the results depend on the processing

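The lower granin level of gated cells in CRPR2 kept its direction under each alternative that kept the gate. With the gate set on the thinned cell the log2 ratio was -0.36 for *Chga* and -0.38 for *Scg5*. Alternatives chosen after seeing the data gave -0.36, -0.36 and -0.44 for *Chga*, *Chgb* and *Scg5* in gated cells with no transcript of the trimmed lists (3729 cells in RPR2 and 37678 in CRPR2), and -0.16, -0.20 and -0.58 with none of the full lists (582 and 3645 cells), where the interval of *Chgb* included 0 (-0.40 to 0.0047). With no gate the direction reversed, at 2.00, 2.12 and 1.98.

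The log2 ratio of shares for *Chga* and *Scg5* was -0.31 and -0.28 when thinned to 30 transcripts, -0.20 and -0.12 at 100, and -0.18 and -0.12 without thinning. With positivity at 2 transcripts it was -0.59, -0.62 and -0.53 for the 3 genes. Gated over other cells, a gate of 5 gave 4.08, 4.26 and 4.15 in RPR2 and 1.20, 1.27 and 1.28 in CRPR2, and other cells with 0 gate transcripts gave 6.64, 7.13 and 6.91 and 3.31, 3.63 and 3.55. The frequency of all 3 granins over the product was 1.09 in CRPR2 with a gate of 5 and 1.17 without thinning, and 1.06 (0.975 to 1.14) in RPR2 with a gate of 5, an interval that includes 1. The cause of these shifts was not tested. The variance over the mean has no counting interval. Its 12 alternative values (3 genes, 2 sections and 2 settings) stayed within 1.5 times the main value. That tolerance was set after seeing the data and is wide for values near 1. The variance over the mean was highest when thinned to 100 transcripts, at 1.25 for *Scg5* in RPR2 (main value 1.05) and 1.18 in CRPR2 (main value 1.06). No paired analysis was possible because each genotype has 1 section. Gene shares are limited by a depth near 100 transcripts per cell.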
